A study of Ailuropoda melanoleuca with 25 samples.

Results

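In a study of induced pluripotent stem cells of the giant panda (GPiPSC), 160 of 22924 gene models were strongly higher in BACL-CHIR99021 than in BACL control. They were chosen by CPM, the estimated count of a model scaled to its library total. A member had 20 CPM or more in both BACL-CHIR99021 libraries, each at least 8 times the higher of the 2 BACL control libraries. These values chose the members, so they are given below as a description, with no test. The files name gene models by an assembly identifier (evm.model) and pair none of them with a gene name, so neither gene functions nor cell type markers could be read from them.

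Messenger RNA of 25 libraries was sequenced. The groups were BACL-CHIR99021 and BACL control, BACL LB GPiPSC, LB GPiPSC and XR GPiPSC, primary fibroblasts (LB PF and XR PF), cells under reprogramming with non-integrating episomal vectors (day 8 and day 24 of stage I, and stage II day 8), and A83-01 day 16 with control day 16. Each had 2 libraries, except LB GPiPSC with 3. The labels spell out neither LB, XR and BACL nor the hyphen in BACL-CHIR99021, which may mean BACL with or without CHIR99021. They give no dose or duration of CHIR99021 or A83-01, do not say whether a line is 1 clone, and do not say whether BACL control and BACL-CHIR99021 are LB or XR cells. The titles of the stage and day 16 groups name neither LB nor XR. The source of every sample is given as primary fibroblasts. Nor is it said whether replicates come from separate cultures, so the p-values rest on a spread between libraries that may be technical.

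CHIR99021 inhibits glycogen synthase kinase 3, an enzyme that marks beta-catenin for breakdown, so that beta-catenin builds up and activates Wnt target genes. In mouse and human pluripotent cells this pathway can help hold an undifferentiated state or start differentiation, depending on dose, timing and the other factors in the medium. A83-01 inhibits type I receptors of the TGF-beta family, whose signals maintain many mesenchymal genes of fibroblasts. Reprogramming turns off fibroblast genes and turns on pluripotency genes, and the 2 programs are usually opposite in a fibroblast and an established line.

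Library totals ran from 8627983 to 14890260 estimated counts, so that 3 counts, the smallest number read here as a level, stood at 0.201 to 0.348 CPM. All 160 members passed the filter on low counts, which left 17225 models to test. A filter on the compared groups alone kept from 138 of them (stage I day 8 against PF) to all 160 (GPiPSC against stage II day 8). Calls were made where the adjusted p was under 0.05 in edgeR's quasi-likelihood test with Benjamini-Hochberg adjustment over all 17225 models. Levels are CPM on library totals, whereas fold changes also use TMM factors, which correct for library composition and ran from 0.622 (stage I day 8 replicate 1) to 1.33 (LB GPiPSC replicate 1). In LB GPiPSC, replicate 3 lay nearer to XR GPiPSC than to the other 2 replicates: its median absolute difference over all tested models, in log2(CPM + 1), was 0.288 and 0.282 from LB GPiPSC replicates 1 and 2 and 0.24 and 0.253 from XR GPiPSC replicates 1 and 2, against 0.23 between LB GPiPSC replicates 1 and 2. As these are bulk samples, a member's level cannot tell fewer cells with the RNA from less RNA per cell.

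The members ranged from a mean of 20.4 to 11428 CPM in BACL-CHIR99021, with a median of 42.1 CPM. The median over members of the group mean was 2.06 CPM in BACL control. Of the 160, 35 had a mean of 100 CPM or more and 94 of under 50 CPM. Together they held 3.15% and 3.26% of all counts in the BACL-CHIR99021 libraries, against 0.111% in each BACL control library. One member, evm.model.HIC_ASM_1.708, held 35.7% of the members' counts in BACL-CHIR99021, and without it the shares were 2.04% and 2.09% in BACL-CHIR99021 and 0.0918% and 0.0925% in BACL control. The ratio that the rule uses, of the lower BACL-CHIR99021 library to the higher BACL control library, had a median of 18.02, with 3 counts put in place of smaller BACL control counts. It was at least 16 in 85 members, at least 32 in 55 and at least 100 in 22, and 11 members had 3 counts or fewer in both BACL control libraries. The 2 BACL-CHIR99021 libraries stood close together, replicate 1 being 0.737 to 1.20 times replicate 2 over all members. The members were 0.698% of all models, and 2.11% of the 7584 models at 20 CPM or more in both BACL-CHIR99021 libraries.

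**Figure D1:**
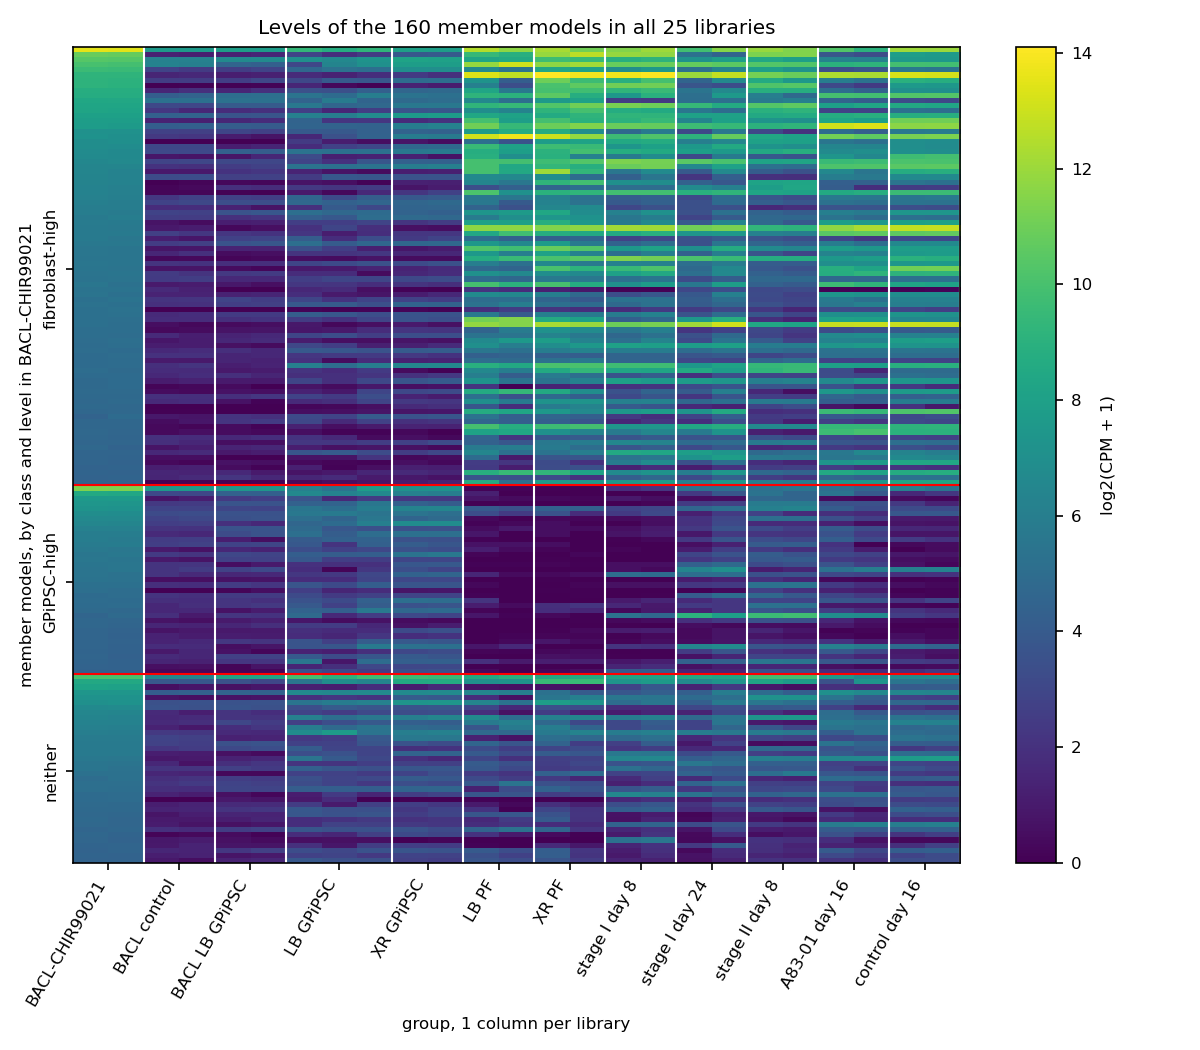
Level of each of the 160 members as log2(CPM + 1), with 1 row per member and 1 column per library of the 12 groups. Red lines separate 86 fibroblast-high members, 37 GPiPSC-high members and 37 members of neither kind, as defined in the text. All 3 blocks are high in BACL-CHIR99021 and low in BACL control by choice, and in the remaining groups the upper block has higher medians in fibroblasts, in the stage groups and at day 16 than in the GPiPSC groups.

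The member with the most counts, evm.model.HIC_ASM_1.708 (coding length 6888 bases), had 11735 and 11121 CPM in BACL-CHIR99021, against 189 and 192 CPM in BACL control. Its levels in BACL-CHIR99021 were also above the highest fibroblast library, since it had 5804 and 3306 CPM in LB PF and 4977 and 2174 CPM in XR PF. In LB GPiPSC it stood at 649, 424 and 587 CPM and in XR GPiPSC at 258 and 241 CPM. The next, evm.model.HIC_ASM_13.1834, had 2695 and 2544 CPM in BACL-CHIR99021 against 197 and 196 CPM in BACL control. Unlike the first, it was nearly absent from fibroblasts, with 0.116 CPM or less in each of the 4 PF libraries, and it had 68.8, 40.7 and 223 CPM in LB GPiPSC and 141 and 142 CPM in XR GPiPSC. Both members thus stood higher in BACL-CHIR99021 than in any of the other 23 libraries, one being abundant also in fibroblasts and one at or near 0 there.

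Among members with at least 10 counts in each BACL control library, evm.model.HIC_ASM_7.203 had the largest ratio of means, 1311. It had 1778 and 1760 CPM in BACL-CHIR99021 against 1.45 and 1.24 CPM in BACL control. The second, evm.model.HIC_ASM_0.1427, had 584 and 566 CPM in BACL-CHIR99021 against 1.74 and 2.12 CPM in BACL control, a ratio of 297. Both were abundant in fibroblasts: in LB PF they had 687 and 474 CPM, and 10465 and 6887 CPM, and in XR PF 3865 and 6535 CPM, and 17576 and 14873 CPM. In LB and XR GPiPSC neither passed 15.8 CPM in any library. At the limit of the rule, evm.model.HIC_ASM_15.370 was just inside at 8.02-fold, with 34.1 and 34.3 CPM in BACL-CHIR99021 against 3.27 and 4.25 CPM in BACL control. Just outside at 7.998-fold was evm.model.HIC_ASM_20.183, with 26.7 and 30.5 CPM in BACL-CHIR99021 against 3.34 and 2.78 CPM in BACL control.

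**Figure D2:**
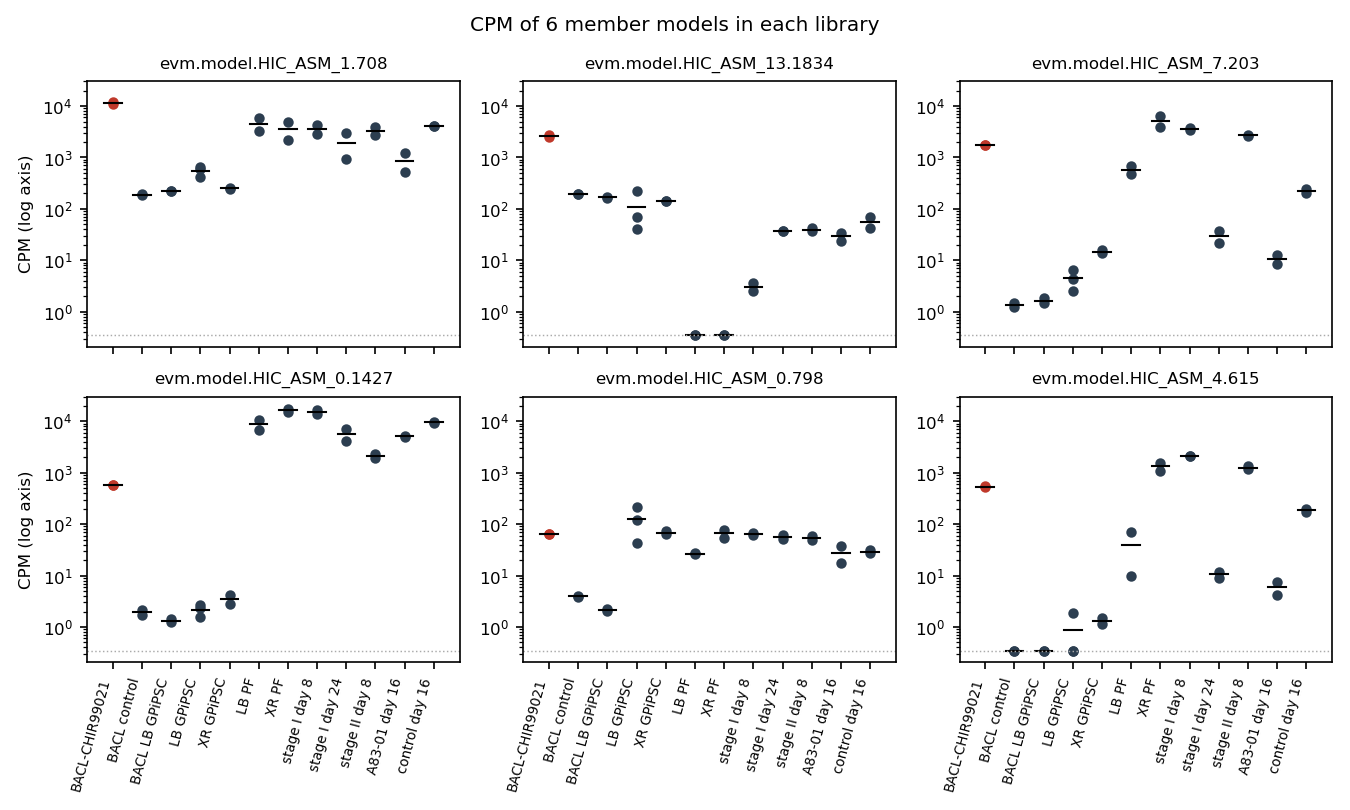
CPM on a log axis in every library of the 12 groups for 6 members, with 1 point per library and a bar at the group mean. Points are red in BACL-CHIR99021 and dark in the other groups, and values under 0.348 CPM (3 counts in the smallest library) are drawn at the dotted line. Shared with fibroblasts are evm.model.HIC_ASM_1.708, evm.model.HIC_ASM_7.203, evm.model.HIC_ASM_0.1427 and evm.model.HIC_ASM_4.615. For evm.model.HIC_ASM_4.615 this held mainly in XR PF, with 15313 and 23408 estimated counts against 858 and 83 in LB PF. In contrast, evm.model.HIC_ASM_13.1834 was at or near 0 in fibroblasts, low at stage I day 8 and higher in all other groups. The last, evm.model.HIC_ASM_0.798, was shared with all groups except BACL control and BACL LB GPiPSC.

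The contrast could come from high levels in BACL-CHIR99021, from low levels in BACL control, or from both, and standard GPiPSC (the 3 LB and 2 XR libraries) gave a point between them. In 148 members both BACL-CHIR99021 libraries were above all 5 standard GPiPSC libraries, where 23.7% of all models tested met the same condition. In 106 members both BACL control libraries were below all 5, against 28.1% of all models. Both held at once in 96 members, against 4.88% of all models. The median over members of the ratio of BACL-CHIR99021 to the mean of the 5 standard GPiPSC libraries was 6.35, and the median of group means was 42.1 CPM in BACL-CHIR99021, against 6.44 CPM in LB GPiPSC, 8.47 CPM in XR GPiPSC and 2.06 CPM in BACL control. These counts use libraries of the rule and so are a description only.

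The BACL LB GPiPSC libraries took no part in the rule, and in them the members were nearly as low as in BACL control. The median over members was 2.26 CPM in BACL LB GPiPSC, and the members held 0.144% of all counts in each library. All 160 members were higher in both BACL-CHIR99021 libraries than in both BACL LB GPiPSC libraries, where 43.6% of all models were. The gap was at least 8-fold in 126 of them, against 9.62% of all models. BACL control was above both BACL LB GPiPSC libraries in 47 members and below both in 78, with 31.3% and 40.4% of all models doing so, and in the others the groups overlapped. Each of these counts sets BACL LB GPiPSC beside libraries of the rule, so they too are a description only.

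BACL LB GPiPSC was tested against LB GPiPSC, a contrast of libraries that the choice of members did not use. All 25 libraries, those of the rule included, entered the fit that gave the spread and the TMM factors. However, the rule favours low levels in BACL control, a group with the same BACL label. The shares of other models given here are not matched for such low levels. How far the choice of members set these calls was not tested. Of the 160 members 75 were lower in BACL LB GPiPSC and 0 were higher by edgeR, where 7.7% of all models tested were called lower and 1.79% higher. Among the 7584 models with 20 CPM or more in both BACL-CHIR99021 libraries, 4.35% were called lower and 1.93% higher. Over all members 142 had a log2 fold change below 0, against 54.01% of all models tested, and their median was -1.48 against -0.06 over all models. At an unadjusted p under 0.05 there were 107 members in either direction, against 22.3% of all models. DESeq2 called 92 members lower and 5 higher, against 9.41% and 2.69% of all models. A fit of only these groups kept 146 members and called 60 of them lower and 0 higher. Of the 14550 models it tested, 1073 were called lower and 617 higher. Without BACL LB GPiPSC replicate 1, 34 members were lower and 0 higher (2.09% and 0.474% of all models), and without replicate 2, 36 were lower and 0 higher (2.17% and 0.502%). By the classes defined next, called lower were 35 of the 86 fibroblast-high members (10.4% of all tested models of that class), 21 of the 37 GPiPSC-high members (13.5%) and 19 of the remaining 37 (4.82%). Of each of the first 2 classes 0 members were called higher, against 2.57% and 1.78% of all tested models of the class. The LB GPiPSC libraries of this comparison also define the classes.

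Among members with enough counts on both sides, the largest fall belonged to evm.model.HIC_ASM_0.798, which had 2.24 and 2.09 CPM in BACL LB GPiPSC, against 118, 216 and 42.3 CPM in LB GPiPSC. It was far below every LB GPiPSC library, with a log2 fold change of -5.77 ± 0.62 (SE) and an adjusted p of 9.74e-06 (edgeR). This model stood between 17.5 and 78.3 CPM in all PF, stage, day 16 and XR GPiPSC libraries, and at 64.8 and 62.8 CPM in BACL-CHIR99021 against 4.07 and 3.81 CPM in BACL control. Another, evm.model.HIC_ASM_8.1338, had 0.463 and 0.753 CPM in BACL LB GPiPSC against 11.5, 12.7 and 55.7 CPM in LB GPiPSC, with no overlap (log2 fold change -5.35 ± 0.69 SE, edgeR adjusted p = 8.54e-05). The 3 LB GPiPSC libraries were far apart in both models, with replicate 3 the lowest in the first and the highest in the second. Without LB GPiPSC replicate 3, 60 members were called lower and 2 higher, against 6.38% and 1.37% of all models.

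Established lines were compared with fibroblasts of the same label to see where the members stood in reprogramming. The rule favours low levels in BACL control, and the shares of all models here and in the later comparisons are not matched for this. In LB GPiPSC 94 of the 160 members were lower than in LB PF and 48 higher, where 28.9% and 28.5% of all models were called. In XR GPiPSC 94 were lower than in XR PF and 40 higher, against 28.9% and 27% of all models. Among the 7584 models at 20 CPM or more in both BACL-CHIR99021 libraries, 24.3% were lower and 33% higher in LB, and 26.4% and 27.1% in XR. Called lower in both were 86 members, termed fibroblast-high here, against 21.2% of all models tested and 17.7% of those 7584. Called higher in both were 37 members, termed GPiPSC-high, against 19.8% and 21.2%. Of the other 37 members, evm.model.HIC_ASM_7.1641 was called in opposite directions (0.662% of all models were), and 36 were not called the same way in both (58.3% of all models). Without LB GPiPSC replicate 3, 90 members were lower and 47 higher in LB, against 27.4% and 27.1% of all models. The members' median log2 fold change was -1.94 in LB and -2.44 in XR, against 0.00 over all models in each.

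**Figure D3:**
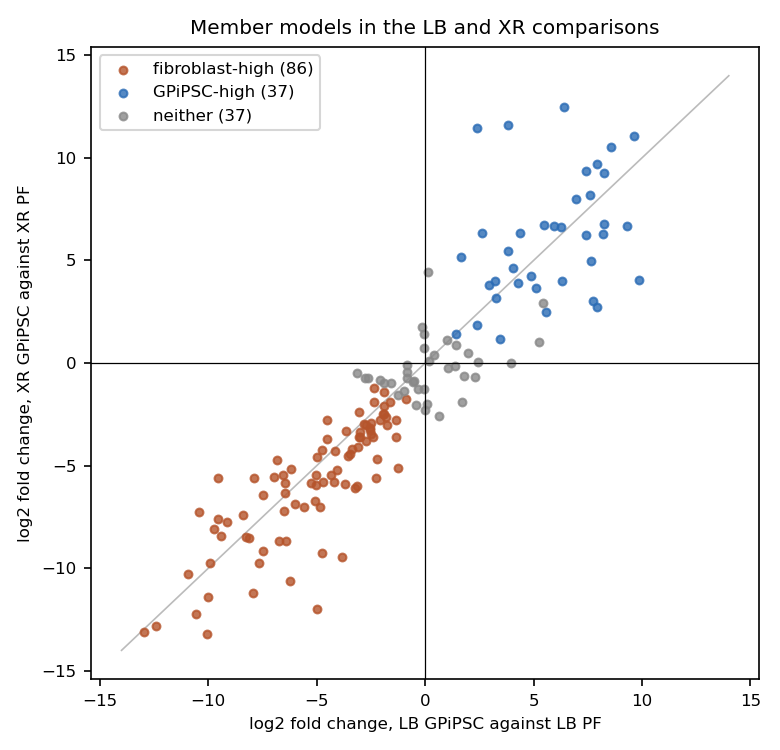
Log2 fold change of each member in XR GPiPSC against XR PF (vertical axis) and in LB GPiPSC against LB PF (horizontal axis), with 1 point per member and a grey line of equal change. The 86 fibroblast-high members lie at the lower left and the 37 GPiPSC-high members at the upper right by definition.

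The fibroblast-high members fell by several orders of magnitude at their extreme. The model evm.model.HIC_ASM_1.498 had 0.862, 0.242 and 0.510 CPM in LB GPiPSC against 3661 and 2909 CPM in LB PF. It had 1.04 and 0.534 CPM in XR GPiPSC against 4950 and 3942 CPM in XR PF. The groups did not overlap in either line, and the log2 fold changes were -12.99 ± 0.38 in LB and -13.09 ± 0.45 in XR (SE), with edgeR adjusted p-values of 9.92e-15 and 2.38e-13. In BACL-CHIR99021 it had only 36.3 and 33.7 CPM, far below the fibroblasts, against 0.436 and 0.220 CPM in BACL control. For evm.model.HIC_ASM_0.1427 the LB fold change was -12.39 ± 0.32 (SE, edgeR adjusted p = 2.45e-15), with 2.33, 1.53 and 2.63 CPM in LB GPiPSC against the LB PF values given above. In XR, evm.model.HIC_ASM_4.1592 had 0.562 and 0.458 CPM in XR GPiPSC against 2712 and 3401 CPM in XR PF (log2 fold change -13.19 ± 0.55 SE, edgeR adjusted p = 7.00e-12), and 55.4 and 51.4 CPM in BACL-CHIR99021.

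Most GPiPSC-high members were low in fibroblasts, 32 of the 37 having a mean under 1 CPM over the 4 PF libraries. Their median over members was 0.122 CPM in LB PF and 0.137 CPM in XR PF, under the level of 3 counts. The exception with the highest level, evm.model.HIC_ASM_7.1444, had 15.2 and 10.1 CPM in LB PF and 20.4 and 19.01 CPM in XR PF. In LB, evm.model.HIC_ASM_0.1758 had 94.3, 74.3 and 101 CPM in LB GPiPSC against 1.39 and 0 CPM in LB PF, so that 1 fibroblast library held all its counts. Its log2 fold change was 6.42 ± 0.69 (SE, edgeR adjusted p = 4.76e-07), and it had 381 and 350 CPM in BACL-CHIR99021 against 7.63 and 7.10 CPM in BACL control. The model evm.model.HIC_ASM_6.574 had 34.6, 17.2 and 32 CPM in LB GPiPSC against 0.815 and 0 CPM in LB PF (5.47 ± 0.73 SE, edgeR adjusted p = 3.16e-06). In XR, evm.model.HIC_ASM_11.752 had 20.6 and 23.2 CPM in XR GPiPSC against 0.281 and 0.470 CPM in XR PF, which did not overlap (5.17 ± 0.52 SE, edgeR adjusted p = 1.06e-07). The model evm.model.HIC_ASM_7.1457 had 9.79 and 10.8 CPM in XR GPiPSC against 0.211 and 0.470 CPM in XR PF (4.22 ± 0.52 SE, edgeR adjusted p = 1.64e-06), and 20.3 and 20.5 CPM in BACL-CHIR99021.

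How far the members reached in BACL-CHIR99021 relative to fibroblasts was described by class, with no test. The fibroblast-high members had a median of 43.4 CPM in BACL-CHIR99021 against 97.1 CPM in LB PF and 182 CPM in XR PF, with 4.49 CPM in LB GPiPSC, 4.0 CPM in XR GPiPSC and 2.19 CPM in BACL control. The median of their ratios to the mean of the 4 PF libraries was 0.477, or 0.333 on TMM-scaled CPM. In 23 of the 86 the BACL-CHIR99021 mean was above the PF mean (16 on TMM-scaled CPM), and in 14 it was under 10% of it. Both BACL-CHIR99021 libraries were below all 4 PF libraries in 42 of the 86, against 67.1% of the 3652 tested models of that class, and above all 4 in 16, against 2.57%. The GPiPSC-high members had a median of 39.6 CPM in BACL-CHIR99021, against 11.9 CPM in LB GPiPSC, 12.3 CPM in XR GPiPSC and 2.37 CPM in BACL control. In 26 of these 37 both BACL-CHIR99021 libraries were above all other 23 libraries, against 7.34% of the 3418 tested models of that class, and in 11 of the 86 fibroblast-high members, against 1.1%. Over all 160 members this held in 62, against 5.07% of all models. The counts against PF and against all other libraries use libraries of the rule, which favours high levels in BACL-CHIR99021. The shares of other models are not matched for this, so these counts are a description only. The remaining 37 members stood at similar medians in LB PF, XR PF, LB GPiPSC and XR GPiPSC (7.80, 9.08, 8.80 and 9.06 CPM), against 41.0 CPM in BACL-CHIR99021 and 1.75 CPM in BACL control.

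**Figure D4:**
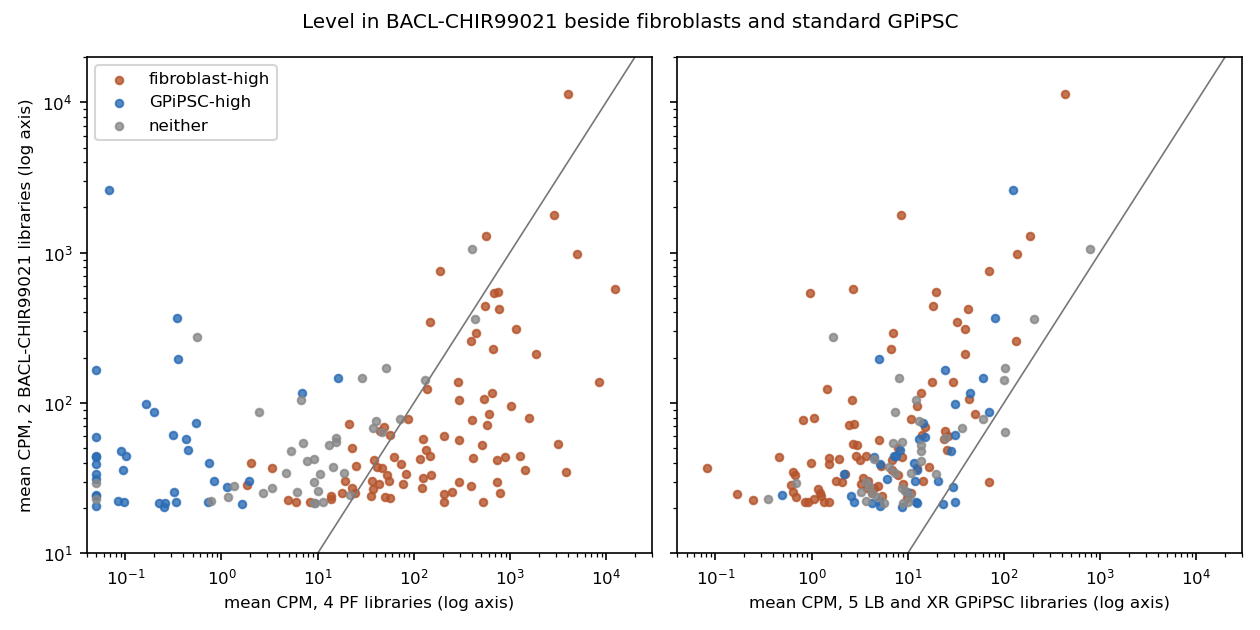
Mean CPM of each member in the 2 BACL-CHIR99021 libraries (vertical log axis) against its mean in the 4 PF libraries (left) and in the 5 LB and XR GPiPSC libraries (right), with values under 0.05 drawn at 0.05 and a line of equal level. On the left, 63 of the 86 fibroblast-high points lie right of the line and all 37 GPiPSC-high points left of it, and on the right most points of every class lie left of it.

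A83-01 was compared with control at day 16. In A83-01 23 members were higher and 29 lower, where 4.19% and 2.04% of all models tested were called, and 5.1% and 1.5% of the 7584 at 20 CPM or more in both BACL-CHIR99021 libraries. By class, of the 86 fibroblast-high members 22 were lower and 2 higher (4.98% and 0.794% of that class), and of the 37 GPiPSC-high members 17 were higher and 1 lower (15.7% and 0.907% of that class). The members' median log2 fold change was -0.27, against 0.04 over all models. Without control day 16 replicate 1, 11 members were higher and 19 lower, where 1.36% and 0.784% of all models were called. Without control day 16 replicate 2 the members had 7 higher and 17 lower calls (1.04% and 0.666% of all models), and without A83-01 day 16 replicate 1 they had 10 and 14 (1.31% and 0.803%). Without A83-01 day 16 replicate 2 the members had 19 higher and 18 lower calls, against 3.62% and 0.836% of all models. A fit of only these 4 libraries called 27 higher and 55 lower of 148 members tested, against 7.31% and 7.59% of all models.

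Among those higher, evm.model.HIC_ASM_8.720 had 118 and 106 CPM in A83-01 against 5.16 and 3.68 CPM in control, with no overlap (log2 fold change 4.51 ± 0.85 SE, edgeR adjusted p = 0.00255, and 0.0711 without control day 16 replicate 2). The model evm.model.HIC_ASM_13.270 had 14.6 and 6.96 CPM in A83-01 against 1.01 and 0.684 CPM in control (3.48 ± 0.53 SE, edgeR adjusted p = 0.000452). Both are GPiPSC-high, at 22.8 and 28.5 CPM and at 22.4 and 20.8 CPM in BACL-CHIR99021. However, evm.model.HIC_ASM_8.720 had its most estimated counts at stage II day 8 (10374 and 12419). It had 329, 26 and 55 in LB GPiPSC and 94 and 85 in XR GPiPSC. Among those lower, evm.model.ORI_1550.3 had 0.698 and 0.447 CPM in A83-01 against 20.5 and 18.2 CPM in control (-5.18 ± 0.71 SE, edgeR adjusted p = 0.000189). The fibroblast-high evm.model.HIC_ASM_4.615 had 7.62 and 4.26 CPM in A83-01 against 199 and 176 CPM in control (-5.14 ± 0.79 SE, edgeR adjusted p = 0.000448). This model had 557 and 519 CPM in BACL-CHIR99021, against 0 and 0.0732 CPM in BACL control, which is 1 count in all.

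Stage I day 8 was compared with fibroblasts, the mean of LB PF and XR PF. The stage titles name neither LB nor XR. A difference between these lines therefore cannot be told apart from a change at this stage. At stage I day 8 62 members were higher and 38 lower, where 26% and 25.6% of all models were called, and the members' median log2 fold change was 0.36 against 0.00 over all models. Of the 7584 models at 20 CPM or more in both BACL-CHIR99021 libraries, 25.9% and 33% were called. Of the 86 fibroblast-high members 31 were higher and 26 lower (28.3% and 27.1% of that class), and of the 37 GPiPSC-high members 15 were higher and 1 lower (24.8% and 22.7% of that class), but the PF libraries also define the classes. Of these 37 GPiPSC-high members 32 had a PF mean under 1 CPM, which leaves little room for a lower call. The shares of that class are not matched for this. On log2(TPM + 1) with limma-trend, which moved all models down, 33 members were higher and 47 lower, where 14.5% and 35.9% of all models were called, and the medians were -0.05 for the members and -0.29 for all models. On both scales the members' share of higher calls was above that of all models. Their share of lower calls was below it, by little in edgeR (23.8% against 25.6%). In a fit of only the PF and stage I day 8 libraries the members' share of lower calls was above that of all models (17.4% against 13%). Without stage I day 8 replicate 1, 45 were higher and 20 lower (15.4% and 11.4% of all models), and a fit of only these 6 libraries gave 38 higher and 24 lower of 138 members tested (15.7% and 13% of all models). Higher at stage I day 8, evm.model.HIC_ASM_8.720 had 38.5 and 25.9 CPM at stage I day 8, against 0.815 CPM or less in each PF library (7.16 ± 0.83 SE, edgeR adjusted p = 1.74e-06). The model evm.model.HIC_ASM_7.1457 had 14.9 and 15.9 CPM against 0.470 CPM or less (6.29 ± 0.42 SE, edgeR adjusted p = 1.78e-09). Lower were evm.model.HIC_ASM_3.1707_evm.model.HIC_ASM_3.1708, a merged model, with 17.4 and 26.2 CPM at stage I day 8 against 262 to 2876 CPM in PF, and evm.model.HIC_ASM_16.2446, with 4.98 and 4.04 CPM against 33.4 to 265 CPM. Neither overlapped with PF, and their log2 fold changes were -4.96 ± 0.33 and -4.34 ± 0.49 (SE), with edgeR adjusted p-values of 1.69e-09 and 1.31e-06.

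From day 8 to day 24 of stage I, 34 members were higher and 64 lower at day 24, where 18.6% and 13.9% of all models were called, and 21.5% and 13.1% of the 7584 at 20 CPM or more in both BACL-CHIR99021 libraries. Their median log2 fold change was -0.83 against 0.15 over all models. Of the 86 fibroblast-high members 47 were lower and 6 higher (36.4% and 5.28% of that class), and of the 37 GPiPSC-high members 24 were higher and 4 lower (52.6% and 3.1% of that class). A fit of only these 4 libraries called 26 higher and 38 lower of 153 members tested, against 9.18% and 7.39% of all models. Among those higher at day 24, evm.model.HIC_ASM_4.1262 had 19.7 and 28.6 CPM at day 24 against 0.467 and 0.505 CPM at day 8 (5.2 ± 0.43 SE, edgeR adjusted p = 5.77e-08). The model evm.model.HIC_ASM_10.104.1 had 85.6 and 133 CPM at day 24 against 0.467 and 0.288 CPM at day 8 (7.74 ± 0.81 SE, edgeR adjusted p = 1.69e-06), yet only 9.39 CPM or less in each standard GPiPSC library. In the other direction, evm.model.HIC_ASM_4.1213 had 0.226 and 0.525 CPM at day 24 against 37.5 and 47.7 CPM at day 8 (-7.23 ± 0.56 SE, edgeR adjusted p = 6.98e-08). It had 0 CPM in all 4 PF libraries, at most 0.565 CPM in any standard GPiPSC library, and 24.4 and 21.8 CPM in BACL-CHIR99021 against 0.872 and 1.10 CPM in BACL control. High levels of this member thus occurred in stage I day 8 and BACL-CHIR99021, all other libraries being at 3.18 CPM or less.

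At stage II day 8, 49 members were higher and 43 lower than at stage I day 24, where 12.7% and 19% of all models were called, and 20.5% and 13.7% of the 7584 at 20 CPM or more in both BACL-CHIR99021 libraries. The median was 0.13 against -0.15, and on log2(TPM + 1) -0.13 against -0.22. Of the 86 fibroblast-high members 22 were higher and 30 lower, where 5.15% and 35.4% of that class were called, and of the 37 GPiPSC-high members 17 were higher and 5 lower (22.4% and 9.22% of that class). Without stage II day 8 replicate 2 the counts were 37 higher and 23 lower (5.4% and 6.94% of all models). The balance and the median depended on the stage I day 24 libraries: without replicate 1 of that group 44 members were higher and 49 lower (16.5% and 22.5% of all models), with a median of -0.02, and without replicate 2 38 were higher and 27 lower (6.63% and 8.81%), with a median of 0.69. The fibroblast-high evm.model.HIC_ASM_4.615 had 1173 and 1322 CPM at stage II day 8 against 12 and 9.15 CPM at stage I day 24 (7.13 ± 0.85 SE, edgeR adjusted p = 1.02e-05), after 2094 and 2105 CPM at stage I day 8 (-7.98 ± 0.88 SE from day 8 to day 24, edgeR adjusted p = 1.49e-06). The same order was seen in evm.model.HIC_ASM_7.203, with 2582 and 2788 CPM at stage II day 8 against 38 and 21.5 CPM at stage I day 24 (6.70 ± 0.49 SE, edgeR adjusted p = 3.79e-08) and 3710 and 3492 CPM at stage I day 8. Both were also lower in A83-01 than in control at day 16, evm.model.HIC_ASM_7.203 having 12.6 and 8.67 CPM in A83-01 against 243 and 204 CPM in control (-4.55 ± 0.45 SE, edgeR adjusted p = 1.11e-05). The 2 stage comparisons share the stage I day 24 libraries, so a level there moves both. Lower at stage II day 8 were the merged model evm.model.HIC_ASM_3.1707_evm.model.HIC_ASM_3.1708, with 2.74 and 1.51 CPM against 175 and 457 CPM at stage I day 24 (-6.84 ± 0.39 SE, edgeR adjusted p = 1.74e-09), and evm.model.HIC_ASM_8.1079, with 2.59 and 2.87 CPM against 155 and 373 CPM (-6.20 ± 0.32 SE, edgeR adjusted p = 1.19e-09).

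Standard GPiPSC, the mean of LB and XR, were compared with stage II day 8. As the title of stage II day 8 names neither, a line difference cannot be told apart from a change here either. In GPiPSC 101 members were lower and 20 higher, where 36.3% and 31% of all models were called (44% and 33.7% of the 7584 at 20 CPM or more in both BACL-CHIR99021 libraries), and the members' median was -1.90 on the log2 scale, against -0.08 over all models. On log2(TPM + 1) with limma-trend 71 were lower and 43 higher, where 15.3% and 49.9% of all models were called, with a median of -0.48 against 0.55. Of the 86 fibroblast-high members 70 were lower and 2 higher (61.3% and 10.3% of that class), and of the 37 GPiPSC-high members 15 were lower and 7 higher (16% and 50% of that class), with the GPiPSC libraries also defining the classes. The model evm.model.HIC_ASM_4.615 had at most 1.90 CPM in any of the 5 GPiPSC libraries, against the stage II values given above (-11.18 ± 0.72 SE, edgeR adjusted p = 5.35e-10). The short model evm.model.HIC_ASM_0.1428, of coding length 348 bases, had at most 0.679 CPM in GPiPSC against 418 and 426 CPM at stage II day 8 (-10.72 ± 0.37 SE, edgeR adjusted p = 2.33e-13). Higher in GPiPSC was evm.model.HIC_ASM_1.321, with 24.4, 29.2 and 66.8 CPM in LB GPiPSC and 113 and 114 CPM in XR GPiPSC against 2.15 and 2.37 CPM at stage II day 8 (4.03 ± 0.50 SE, edgeR adjusted p = 2.05e-06). So was evm.model.HIC_ASM_0.555, with 5.43, 9.28 and 14.4 CPM in LB GPiPSC and 18.6 and 17.2 CPM in XR GPiPSC against 1.04 and 0.791 CPM (2.99 ± 0.64 SE, edgeR adjusted p = 0.000444). Each of the 160 members was called in at least 1 of the 8 comparisons, as were 94.4% of all models tested.

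**Figure D5:**
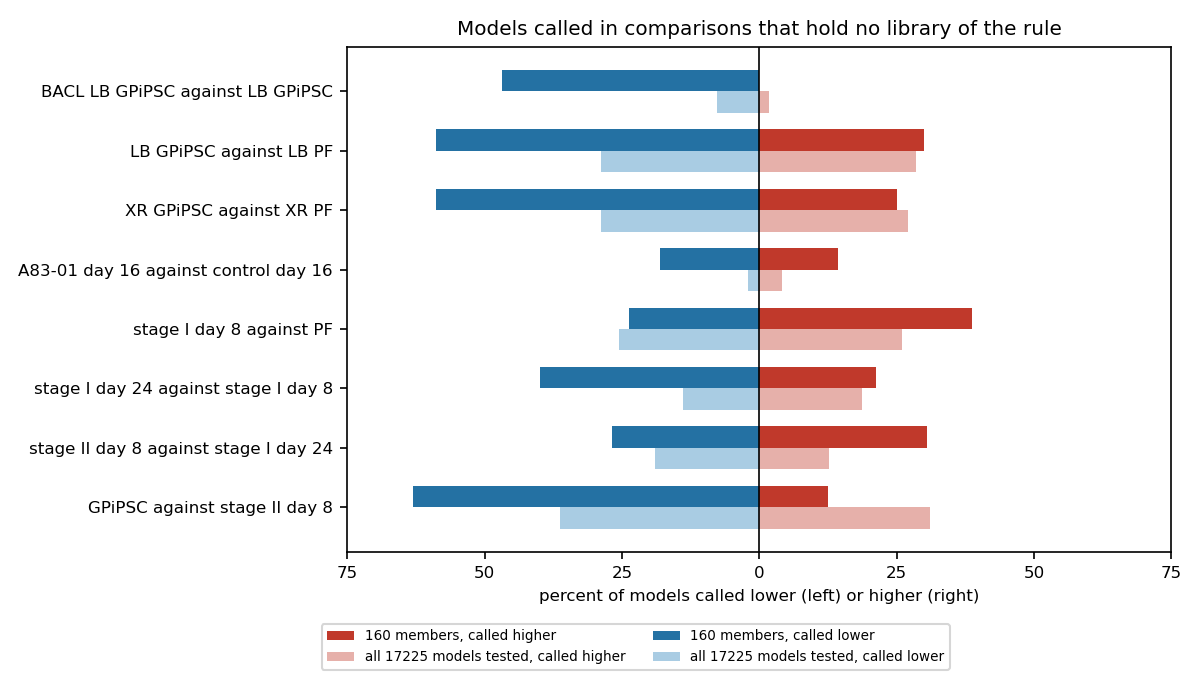
Percent of models called higher (right, red) and lower (left, blue) in each of the 8 comparisons that hold no BACL-CHIR99021 or BACL control library, for the 160 members (dark) and all 17225 models tested (pale). In BACL LB GPiPSC against LB GPiPSC the members have 75 lower calls and 0 higher ones, and in A83-01 day 16 both shares of the members exceed those of all models.

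Outside the 2 groups of the rule, the highest group mean of a member was in LB or XR PF for 50 of the 160 members (31.2%), against 17.5% of all models tested. XR PF alone held the highest mean of 36 members, against 4.78% of all models. Control day 16 held that of 25 members, stage II day 8 that of 20 and stage I day 8 that of 18, against 7.99%, 9.91% and 7.37% of all models. A GPiPSC group (LB, XR or BACL LB) was highest for 25 members, against 43.9% of all models, and BACL LB GPiPSC for 1 member, against 15.2%. These shares moved with scaling. On TMM-scaled CPM stage II day 8 was highest for 14.4% of the members and 18.6% of all models, so that the order of the 2 shares turned, and a GPiPSC group was highest for 18 members and 28.5% of all models. The rule favours low levels in BACL control, and the shares of all models are not matched for this. How far the choice of members set the low GPiPSC shares was not tested.

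The members' coding lengths ran from 318 to 17742 bases, with a median of 1712 against 1171 over all models tested, and with quartiles of 1033 and 2789 against 684 and 1905. As the rule sets a minimum in CPM, which favours long models, this difference was not tested. They lay on 20 of the 21 HIC_ASM scaffolds, with 2 on ORI scaffolds, and HIC_ASM_7 had the most, 17 members or 1.66% of its tested models, against 0.929% overall. In 7 pairs 2 members had model numbers that differ by 1 on a scaffold. The 14 members of these pairs are 8.75% of all members, whereas 138 of the other tested models, or 0.809%, had a number next to a member's. In each of the 7 pairs both models were of the same class: 4 pairs were fibroblast-high (among them evm.model.HIC_ASM_0.1427 with evm.model.HIC_ASM_0.1428, and evm.model.HIC_ASM_1.498 with evm.model.HIC_ASM_1.499), 2 were GPiPSC-high and 1 was of neither class. Whether the models of a pair are separate genes, and whether they share reads, was not tested.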

How the data were processed

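Libraries were made with NEBNext Ultra reagents, per the labels' protocols, and kallisto is named in the submitters' processing notes. The sources used here give no kallisto version, index, genome build or strand setting. The deposited estimated counts per gene model need not be whole and were rounded for the tests. The deposited TPM values, scaled to effective length and library total by the authors' tool, were used for alternatives only. Of the model lengths 91.6% are multiples of 3, hence "coding length". Of the 22924 identifiers 0 matched the RefSeq table at hand (ASM200744v3).

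All 25 libraries entered 1 fit of 12 groups, taken from sample titles: edgeR 4.0.16 in R 4.3.3, filterByExpr on the groups, TMM, robust quasi-likelihood F tests, with an SE from the F statistic. The step was also run on counts simulated with known changes in A83-01 day 16 against control day 16 alone. The outcome is not given here and says nothing of the other comparisons. Alternatives were RLE, DESeq2 1.42.0, no filter, only the groups compared, a replicate block, limma-trend (limma 3.58.1) on log2(TPM + 1) and each library left out in turn. For the number of members they were TPM, TMM-scaled CPM and other limits. Members, comparisons, classes and the rule for named models were chosen with earlier results of these data known. That rule takes the 2 members with the most CPM in BACL-CHIR99021, the 2 with the largest ratio among those with 10 counts in each BACL control library, those nearest the 8-fold limit, and per comparison and direction the 2 called members with the largest fold change. The last need a mean of 10 CPM on the higher side, 10 counts summed over the lower side and no overlap. The models evm.model.HIC_ASM_7.1641, evm.model.HIC_ASM_7.1444 and evm.model.HIC_ASM_1.499 were named after their values were seen.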

Additional observations from a re-analysis of the deposited data

Results flagged for a closer look

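The LB and XR changes from fibroblasts were tested against each other for the members named in those comparisons, and 2 of them differed. The model evm.model.HIC_ASM_11.752 rose by a log2 fold change of 1.65 in LB and 5.17 in XR, a difference of -3.53 ± 0.68 (SE, edgeR adjusted p = 0.00373). It had 3.96, 4.12 and 6.88 CPM in LB GPiPSC against 1.88 and 0.348 CPM in LB PF, and 20.6 and 23.2 CPM in XR GPiPSC against 0.281 and 0.470 CPM in XR PF. The model evm.model.HIC_ASM_4.1592 had log2 fold changes of -10.05 in LB and -13.19 in XR, a difference of 3.14 ± 0.56 (SE, edgeR adjusted p = 0.00221). It had 3.10, 6.62 and 2.80 CPM in LB GPiPSC, and 0.562 and 0.458 CPM in XR GPiPSC, and its PF levels overlapped between LB and XR. Over all 160 members 20 had a higher change in LB than in XR and 11 a lower one, where 5.56% and 3.09% of all models tested were called.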

How the results depend on the processing

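Of 72 alternative values of the 14 main counts, apart from left-out libraries, 62 stayed within 1.5 times, and of 61 with a library left out 54 did. The number of members was 102 on TPM, of which 68 were among the 160, 334 with a limit of 4-fold, 85 with 16-fold and 65 with 50 CPM. With only the groups compared in the fit the members called were 82 in A83-01 day 16, 62 in stage I day 8 and 64 in stage I day 24. With the replicate number as a block they were 94 in A83-01 day 16, 65 in stage I day 8 and 48 in stage II day 8, and the other 5 comparisons had 119 (LB), 132 (XR), 72 (BACL LB GPiPSC), 120 (stage I day 24) and 128 (GPiPSC). The numbers are not shown to pair the libraries: deviations of same-numbered libraries correlated at -0.545 to 0.558, and for stage II day 8 against stage I day 24 at -0.418, where crossed pairs gave 102 calls. With a library left out the calls ran from 34 to 79 in BACL LB GPiPSC, 24 to 37 in A83-01 day 16, 65 to 101 in stage I day 8 and 60 to 93 in stage II day 8; where 1 library is left, its spread is taken from the remaining groups. The 30 named results kept their direction and call in 329 of 330 alternatives, the exception being evm.model.HIC_ASM_8.720 in A83-01. These named results were chosen from called members for the largest changes and no overlap, so they say little about the other members. RLE moved the median of all models by under 0.1, whereas log2(TPM + 1) moved it by up to 0.64, in GPiPSC against stage II day 8. A level of 3 counts limits what can be read below 0.348 CPM. The causes of these shifts were not tested.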
